A study of Mus musculus with 12 samples.

Results

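The LIN28 and let-7 axis was followed through 8 genes: the RNA-binding protein genes Lin28a and Lin28b, the ubiquitin ligase gene Trim71, the chromatin protein genes Hmga1 and Hmga2, and Igf2bp1, Igf2bp2 and Igf2bp3, which encode binding proteins of the insulin-like growth factor 2 mRNA. They were chosen by their symbols and make up 8 of 55335 gene rows in the deposited count table. All 8 were among the 16468 genes with enough counts to be tested. The study sequenced polyA RNA of a mouse embryonic stem (ES) cell line, labelled mESC, at days 0, 2, 4 and 6, with 3 libraries for each day. Every library, day 0 included, carries one and the same growth description, namely serum replacement medium with the self-renewal cytokine LIF, on gelatin together with irradiated embryonic fibroblasts as feeders. What changed for the cells after day 0 is not given in the labels, and neither genotype nor strain of the line is stated. Nothing in them tells whether the 3 libraries of a day came from separate cultures, so each p-value below rests on a spread that may be technical.

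Totals ran from 6.95 to 13.3 times 1e6 counts per library, and the 8 genes together held 0.103 to 0.143% of them. The 6 markers of ES cells, checked because of the cell label, summed to between 4203 and 4220 counts per 1e6 counts (CPM) at day 0 and to between 538 and 564 CPM at day 6, and all 6 fell in each comparison with day 0. All 8 endoderm markers were higher than at day 0 on each later day. Their sum was 122 to 127 CPM at day 0, 718 to 746 CPM at day 2, 1023 to 1039 CPM at day 4 and 827 to 845 CPM at day 6. Between days 4 and 6, 4 of them rose and 3 fell. The 6 mesoderm markers summed to between 41.3 and 46.6 CPM at day 0 and 215 and 221 CPM at day 6 (3 higher and 1 lower of 4 tested, Mesp1 at 0 at days 2 and 4), and the 5 neural markers to between 78.1 and 83.97 CPM and 103.7 and 115 CPM (3 higher and 2 lower, Neurog2 at 0 at day 0). The 10 fibroblast markers, listed because of the feeder cells, summed to between 19.2 and 21.8 CPM at day 0, 17.0 and 20.1 CPM at day 2, 34.0 and 39.6 CPM at day 4, and 170 and 187 CPM at day 6, with Lum at 0 at day 0, Dcn at 0 at day 2 and S100a4 at 0 at day 6. Of the 8 tested fibroblast markers 7 rose and 1, Thy1, fell between day 0 and day 6. The part of these shifts in the results below was not tested.

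LIN28 proteins bind the loop of let-7 precursor RNAs and block their maturation. Mature let-7 microRNAs in turn pair, through the seed near their 5′ end, with sites in the 3′ untranslated regions (UTRs) of mRNAs and lower their output, and the mRNAs of LIN28 itself, TRIM71, HMGA2 and IGF2BP proteins are textbook targets. LIN28A, TRIM71 and HMGA1 are known from pluripotent cells, HMGA2 and the IGF2BP proteins from embryonic and fetal tissues.

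The mature let-7 sequences and their match in the mRNAs are shown first, because they are what the 8 genes have in common. RefSeq (GRCm38.p6) gave 10 mature 5′ names, of which 9 share one seed and let-7j has another. The lines below give 4 of them, with capitals for the seed, bases 2 to 8.
let-7a-5p: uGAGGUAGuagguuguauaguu
let-7e-5p: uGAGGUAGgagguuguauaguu
let-7i-5p: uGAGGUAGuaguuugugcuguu
let-7j: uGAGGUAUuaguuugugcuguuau

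The mRNA match to the shared seed is CTACCTC, and with an A after it the match of 8 bases is CTACCTCA. Both were searched on the transcript strand in the 3′ UTR of the longest coding transcript of each gene (GENCODE M21, GRCm38), and each 8-base match is also a 7-base match. Of the 8 genes, 7 held at least 1 match of 8 bases and Hmga1 held only 1 of 7 bases. Among all 20845 genes with a 3′ UTR, 3.01% held the 8-base match and 8.87% the 7-base match. Among the 10027 with a UTR of at least 1000 bases, a length that all 8 genes exceed, these shares were 5.22% and 15.1%. The 8 include textbook let-7 targets, so their matches come with the choice of genes and are no finding of enrichment. Trim71 and Igf2bp1 were 2 of 7 genes in the annotation with 3 or more 8-base matches. A match describes letters and does not show that let-7 binds there in these cells.

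The following 22-base stretches end in the match, which is in capitals. They show the first match after the stop codon for each of the 8 genes and, for Trim71, also its closest pair.
Lin28a, chr4:134005189-134005210, minus strand: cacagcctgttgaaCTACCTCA
Lin28b, chr10:45381022-45381043, minus strand: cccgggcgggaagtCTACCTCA
Trim71, first, chr9:114512472-114512493, minus strand: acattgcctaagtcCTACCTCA
Trim71, the third, chr9:114509047-114509068, minus strand: ttagtatggattttCTACCTCA
Trim71, the fourth, chr9:114509021-114509042, minus strand: tggcaaaaagttgtCTACCTCA
Hmga1, 7 bases only, chr17:27563278-27563299, plus strand: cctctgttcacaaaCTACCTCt
Hmga2, chr10:120364224-120364245, minus strand: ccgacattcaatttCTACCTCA
Igf2bp1, chr11:95961778-95961799, minus strand: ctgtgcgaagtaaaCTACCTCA
Igf2bp2, chr16:22059473-22059494, minus strand: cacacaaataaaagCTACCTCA
Igf2bp3, chr6:49086787-49086808, minus strand: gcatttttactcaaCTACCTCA

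The genes differed in the number and place of their matches. Trim71 held 4 matches of 8 bases in a UTR of 5512 bases, and Igf2bp1 held 3 of 8 bases and 1 of 7 in 6337 bases. Lin28a held 2 of 8 bases in 2775 bases. Hmga2 (3014 bases) and Lin28b (4445 bases) each held 1 match of 8 bases and 3 more of 7, the 8-base match lying close to the stop codon, at base 58 in Hmga2 and base 36 in Lin28b. Igf2bp2 (1784 bases) and Igf2bp3 (2119 bases) held 1 match each.

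**Figure D1:**
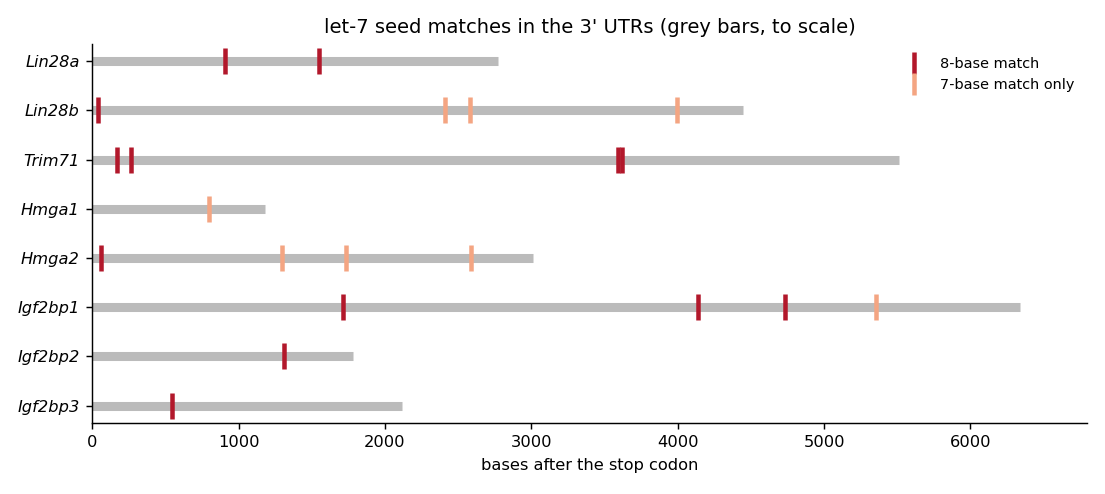
Positions of let-7 seed matches in the 3′ UTR of each of the 8 genes, in bases after the stop codon. Grey bars are the UTRs to scale, dark marks are 8-base matches and light marks 7-base matches without the final A; Trim71 carries 4 dark marks, and Hmga1 carries 1 light mark alone.

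The 8 genes did not move together. Against day 0, Lin28a, Hmga2 and Igf2bp2 rose in all 3 comparisons and Hmga1 and Trim71 fell in all 3, while Lin28b, Igf2bp1 and Igf2bp3 changed less or for one interval alone. The 3 comparisons use one set of day 0 libraries and are therefore not independent of each other. Changes are log2 fold changes ± SE from edgeR's quasi-likelihood test on counts, and a gene counts as changed at a Benjamini-Hochberg adjusted p under 0.05 over all tested genes. In a bulk sample, fewer cells of a type and less RNA per cell cannot be told apart.

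Many genes changed in this time course, and the counts are to be read against that. At day 2, 4 of the 8 genes were higher and 2 lower than at day 0, where 68.1% of all tested genes were changed (34.9% higher, 33.2% lower). At day 4, 4 were higher and 3 lower than at day 0 (73.6% of all genes changed, 37.5% higher and 36.1% lower). At day 6, 3 were higher and 3 lower (76.9% of all genes changed, 39.4% higher and 37.5% lower). Between days 2 and 4, 4 rose and 4 fell (50.1% of all genes changed, 25.3% higher and 24.8% lower). Between days 4 and 6, 5 rose and 2 fell (42.9% of all genes changed, 23.6% higher and 19.3% lower). Changes of at least 2-fold were made by Lin28a and Hmga2 upward and by Trim71 and Hmga1 downward at day 2 (11.9% and 10.3% of all genes) and at day 4 (16.5% and 13.1%). At day 6, Igf2bp2 joined the first pair (18.3% of all genes at least 2-fold higher, 13.8% lower). From day 2 to day 4 and from day 4 to day 6 no member changed by 2-fold, where 6.00% and 3.07% of all genes rose and 3.39% and 2.54% fell by that much. Counted by the adjusted p alone, the share of the 8 genes that changed lay near that of all genes in the comparisons with day 0. The median log2 change of the 8 genes was 0.26, 0.14 and -0.03 at days 2, 4 and 6 against day 0, beside 0.02, 0.01 and 0.02 for all genes. Replicates of the days compared did not overlap for 6, 7 and 6 of the 8 genes in these 3 comparisons, beside 70.7%, 75.2% and 78.3% of all tested genes. In the test of all 4 days together, all 8 genes passed, as did 89.2% of tested genes.

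**Figure D2:**
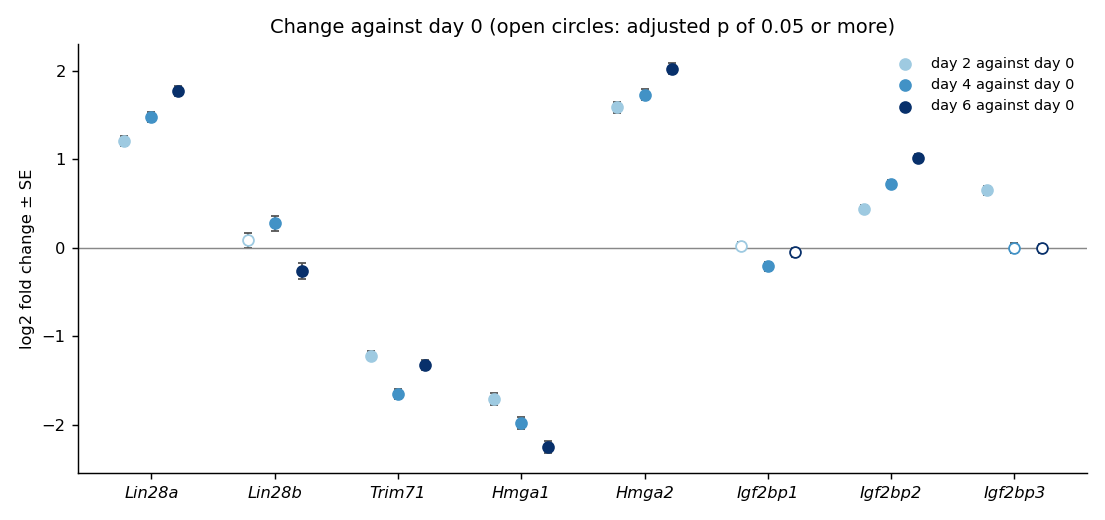
Log2 fold change of the 8 genes at days 2, 4 and 6 against day 0, with SE as bars. Filled circles passed at an adjusted p under 0.05 and open circles did not; Lin28a, Hmga2 and Igf2bp2 lie above 0 at every day and Trim71 and Hmga1 below it.

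Lin28a (ENSMUSG00000050966.9, chr4:134003330-134018841, minus strand), which encodes the LIN28 protein that recruits the uridylating enzymes to let-7 precursors, rose at every step. Its level was 35.1, 39.4 and 35.6 CPM in the day 0 libraries, 84.9, 86.4 and 82.2 CPM at day 2, 101, 106 and 99.9 CPM at day 4 and 127, 123 and 124 CPM at day 6. Each day lay wholly above the day before it. The rise was 1.21 ± 0.06 on the log2 scale at day 2 (adjusted p = 8.23e-21, edgeR's quasi-likelihood test) and 1.77 ± 0.06 at day 6 (3.41-fold, adjusted p = 5.21e-27). Most of it fell in the first interval: day 4 was 0.28 ± 0.05 above day 2 (adjusted p = 9.91e-06) and day 6 was 0.29 ± 0.05 above day 4 (adjusted p = 5.21e-06).

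Lin28b (ENSMUSG00000063804.8, chr10:45376620-45486395, minus strand), its paralog, took a different course and was low throughout. It stood at 23.5, 22.7 and 24.0 CPM at day 0, 23.9, 23.6 and 27.3 CPM at day 2, 29.8, 28.1 and 27.1 CPM at day 4 and 20.8, 19.7 and 17.7 CPM at day 6. Only days 0 and 2 and days 2 and 4 overlapped among the pairs of days compared, and day 6 was the lowest. The fall from day 4 to day 6 was the clearest change, at -0.54 ± 0.08 (adjusted p = 1.72e-06, edgeR's quasi-likelihood test). Day 4 was 0.28 ± 0.09 above day 0 (adjusted p = 0.00411), and day 6 lay below day 0 at -0.27 ± 0.09 (adjusted p = 0.00782). The last of these did not pass without day 6 replicate 3 (-0.20, adjusted p = 0.0578) or with libraries scaled by their size alone (-0.16, adjusted p = 0.109). Day 2 against day 0 gave 0.09 ± 0.08 and did not pass (adjusted p = 0.370), but with library size alone it was 0.22 and passed. The step from day 2 to day 4 was 0.19 ± 0.08 (adjusted p = 0.0427) and did not pass without any 1 of day 0 replicate 1, day 2 replicates 1 and 2 or day 4 replicates 1 and 2, where it lay between 0.15 and 0.20.

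Scaling by library size alone, in place of TMM factors, moved the median of all genes up by 0.132, 0.128 and 0.104 on the log2 scale at days 2, 4 and 6 against day 0. Of the 8 genes, Lin28b, Igf2bp1 and Igf2bp3 are the ones with a call that this scaling changed.

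Trim71 (ENSMUSG00000079259.2, chr9:114507133-114564369, minus strand), a conserved let-7 target whose protein silences mRNAs in stem cells, fell and then partly came back. It stood at 127, 136 and 128 CPM at day 0, 55.6, 54.0 and 58.7 CPM at day 2, 41.7, 42.2 and 40.3 CPM at day 4 and 51.7, 51.1 and 53.7 CPM at day 6. No replicates of any 2 of these days overlapped, day 4 being lowest and day 6 between days 4 and 2. The fall was -1.22 ± 0.05 at day 2 (adjusted p = 1.28e-22, edgeR's quasi-likelihood test) and -1.65 ± 0.06 at day 4 (3.14-fold lower, adjusted p = 5.34e-26). From day 4 to day 6 it rose by 0.33 ± 0.06 (adjusted p = 2.36e-05), which left day 6 at -1.32 ± 0.05 against day 0 (adjusted p = 9.68e-24).

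The HMGA genes encode AT-hook proteins that bend DNA and take part in setting chromatin structure, and here they moved in opposite directions. Hmga1 (ENSMUSG00000046711.16, chr17:27556497-27563674, plus strand) stood at 947, 864 and 900.1 CPM at day 0, 285, 292 and 255 CPM at day 2, 216, 247 and 226 CPM at day 4 and 176, 214 and 181 CPM at day 6. Day 0 stood far above all later days, and each later day lay below the one before it. The replicates of days 4 and 6 and of days 2 and 4 did not overlap. The change was -1.70 ± 0.07 at day 2 (adjusted p = 6.68e-14, edgeR's quasi-likelihood test), -1.98 ± 0.07 at day 4 (adjusted p = 6.84e-15) and -2.25 ± 0.07 at day 6 (4.76-fold lower, adjusted p = 8.23e-16), so most of it lay before day 2.

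The Hmga1 row has a near-copy elsewhere in the table. Hmga1b, on chromosome 11, matches Hmga1 in 1535 of 1538 aligned transcript bases and carries the 7-base let-7 match in identical surroundings. Its own row held 52.1, 17.9, 13.3 and 10.04 CPM at days 0, 2, 4 and 6, and how reads that fit both were counted is not stated. With the 2 rows summed, a choice made after the data were seen, the change at day 6 was -2.26 (adjusted p = 5.84e-19, edgeR's quasi-likelihood test).

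Hmga2 (ENSMUSG00000056758.14, chr10:120361275-120476469, minus strand), the best-known let-7 target of the family, stood at 52.7, 55.5 and 50.5 CPM at day 0, 163, 152 and 162 CPM at day 2, 174, 173 and 181 CPM at day 4 and 206, 238 and 203 CPM at day 6. Every later day lay wholly above the earlier ones. The rise was 1.59 ± 0.06 at day 2 (adjusted p = 3.25e-24, edgeR's quasi-likelihood test) and 2.03 ± 0.06 at day 6 (4.07-fold, adjusted p = 3.57e-28). Of the smaller steps, day 6 was 0.29 ± 0.05 above day 4 (adjusted p = 8.54e-06). Day 4 was 0.15 ± 0.05 above day 2 (adjusted p = 0.0158), which did not pass without day 2 replicate 2 (0.12) or day 4 replicate 3 (0.13). Its exons share 140 bases with the opposite-strand gene 1700006J14Rik, which stood at 1.89 CPM at day 0 and 0.418 CPM at day 6.

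The 3 IGF2BP proteins bind mRNAs, among them those of IGF2, MYC and beta-actin, and steer their stability, transport and translation. Igf2bp2 (ENSMUSG00000033581.17, chr16:22059009-22163299, minus strand) rose at every step. It stood at 155, 159 and 152 CPM at day 0, 200.4, 218 and 215 CPM at day 2, 256, 255 and 259 CPM at day 4 and 318, 309 and 313 CPM at day 6. No 2 days overlapped, and the order of the days was the order of the levels. The change was 0.44 ± 0.04 at day 2 (adjusted p = 3.22e-11, edgeR's quasi-likelihood test), 0.73 ± 0.05 at day 4 (adjusted p = 1.96e-17) and 1.01 ± 0.04 at day 6 (2.02-fold, adjusted p = 2.39e-22). The later steps were 0.28 ± 0.04 from day 2 to day 4 (adjusted p = 7.60e-07) and 0.29 ± 0.04 from day 4 to day 6 (adjusted p = 7.23e-07).

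Igf2bp3 (ENSMUSG00000029814.10, chr6:49085223-49214957, minus strand) was high at day 2 alone. Its levels were 75.3, 84.1 and 78.3 CPM at day 0, 127, 128 and 118 CPM at day 2, 79.1, 79.3 and 79.1 CPM at day 4 and 76.7, 80.7 and 79.7 CPM at day 6. The day 2 libraries stood above the other 9, which overlapped from day to day. It rose by 0.65 ± 0.05 at day 2 (1.57-fold, adjusted p = 2.09e-14, edgeR's quasi-likelihood test) and fell by 0.65 ± 0.05 from day 2 to day 4 (adjusted p = 4.57e-14). Day 4 and day 6 lay at -0.00 ± 0.05 against day 0 (adjusted p = 0.999 and 0.941), though with library size alone day 4 came to 0.13 and passed. Its exons share 1529 bases with Malsu1 on the opposite strand. Malsu1 held 16.5, 18.7, 15.6 and 17.0 CPM at days 0, 2, 4 and 6 and did not pass between day 0 and any later day. Between days 2 and 4, where Igf2bp3 fell, Malsu1 changed by -0.25 ± 0.09 (adjusted p = 0.0230, edgeR's quasi-likelihood test). The part of shared reads in either course was not tested.

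Igf2bp1 (ENSMUSG00000013415.9, chr11:95957163-96005940, minus strand), with its 3 matches of 8 bases, moved least. It stood at 115, 121 and 125 CPM at day 0, 123, 116 and 128 CPM at day 2, 105, 104 and 103 CPM at day 4 and 113, 119 and 118 CPM at day 6. Days 0, 2 and 6 overlapped, and the 3 libraries of day 4 were the lowest. Day 4 lay at -0.21 ± 0.05 against day 0 (adjusted p = 0.000299, edgeR's quasi-likelihood test), a change that shrank to -0.08 and did not pass with library size alone. Day 4 lay at -0.23 ± 0.05 against day 2 (adjusted p = 0.000114), and day 6 was 0.16 ± 0.05 above day 4 (adjusted p = 0.00742). Days 2 and 6 against day 0, at 0.02 ± 0.05 and -0.05 ± 0.05, did not pass (adjusted p = 0.708 and 0.357), but day 2 passed at 0.15 with library size alone.

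**Figure D3:**
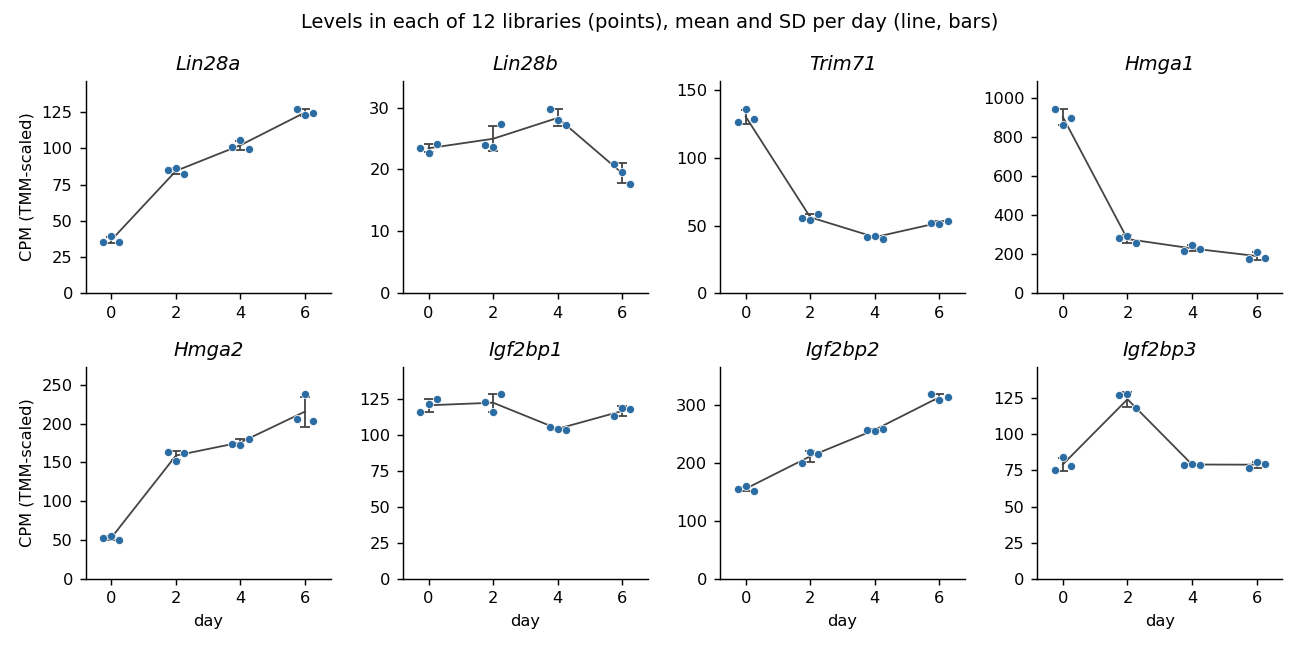
Level of each gene in CPM (TMM-scaled) in each of the 12 libraries by day, with points for libraries, a line through the means and SD as bars; every axis starts at 0. The panels show rises for Lin28a, Hmga2 and Igf2bp2, falls for Hmga1 and Trim71, and a single high day, day 2, for Igf2bp3.

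Levels of different genes can be set side by side only per length, here as CPM per kb of exon. At day 0, Hmga1 stood at 425 ± 19.5 CPM per kb (SD, n = 3), far above Igf2bp2 at 21.0 ± 0.486, Trim71 at 13.99 ± 0.554 and Igf2bp1 at 12.4 ± 0.483. Below them came Igf2bp3 at 9.71 ± 0.553 and Lin28a at 9.18 ± 0.584 CPM per kb, whose libraries overlapped, then Hmga2 at 7.81 ± 0.373 and Lin28b at 2.58 ± 0.0741. At day 6, still per kb of exon, Hmga1 was highest at 89.6 ± 9.53 CPM per kb, followed by Igf2bp2 at 42.3 ± 0.626. Hmga2 at 31.8 ± 2.85 and Lin28a at 31.3 ± 0.595 CPM per kb came next and overlapped. Igf2bp1 at 12.03 ± 0.333, Igf2bp3 at 9.68 ± 0.255, Trim71 at 5.59 ± 0.147 and Lin28b at 2.14 ± 0.176 CPM per kb closed the order. On this scale Trim71 went from the third place to the seventh, and Hmga2 from the seventh to the third, but the order depends on the length used. Per kb of coding sequence, Hmga2 was the second highest at day 0, at 125 ± 5.95 CPM per kb behind Hmga1 at 2294 ± 105. At day 6 it averaged 508 ± 45.5 CPM per kb of coding sequence, and Hmga1 483 ± 51.4, with overlapping ranges. Trim71 was sixth at day 0 by coding length, at 50.9 ± 2.02 CPM per kb, and lowest at day 6, at 20.3 ± 0.534 below Lin28b at 23.8 ± 1.96.

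Between days 0 and 6, Lin28a, Hmga2 and Igf2bp2 each gained share of the summed level of their family per kb of exon. Lin28a made up 78.0 ± 1.503% of the LIN28 sum at day 0 and 88.5 ± 1.08%, 89.1 ± 0.553% and 93.6 ± 0.445% at days 2, 4 and 6 (SD, n = 3). Hmga2 made up 1.81 ± 0.147% of the HMGA sum at day 0 and 15.3 ± 1.29%, 19.4 ± 1.21% and 26.2 ± 0.511% at the later days. Igf2bp2 made up 48.6 ± 0.983%, 50.6 ± 1.44%, 62.9 ± 0.230% and 66.1 ± 0.929% of the IGF2BP sum. Igf2bp3 held 22.5 ± 0.688% at day 0 and a higher 27.0 ± 1.33% at day 2, with no overlap of libraries, and then 17.6 ± 0.0902% and 15.1 ± 0.408% at days 4 and 6. The libraries of Igf2bp2 overlapped between days 0 and 2. All day 6 libraries lay outside the range of day 0 for each of the 7 genes of these families, and the exact two-sided permutation test of day 6 against day 0 gave p = 0.1, the smallest that 3 against 3 allows. The shares of a family add up to the whole, so those of Lin28a and Lin28b mirror each other, as do those of Hmga1 and Hmga2. In CPM, the replicates of days 0 and 6 did not overlap for 78.3% of all tested genes. No correction over the 7 shares was made, since none could pass. The shares depend on the length used: per kb of coding sequence, Hmga2 went from 5.17 to 51.3%, Lin28a from 67.0 to 89.3% and Igf2bp2 from 43.2 to 60.98%. Per kb of exon, the summed level of the LIN28 genes went from 11.8 ± 0.521 to 33.4 ± 0.701 CPM per kb between days 0 and 6, that of the IGF2BP genes from 43.1 ± 1.14 to 64.0 ± 0.177, and that of the HMGA genes from 433 ± 19.3 to 121 ± 12.3.

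**Figure D4:**
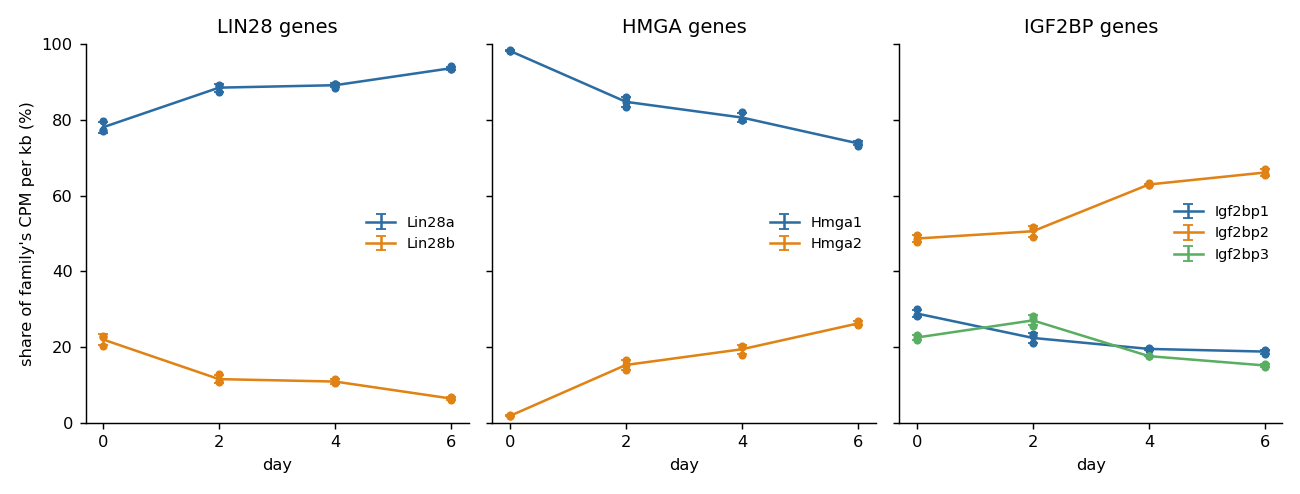
Share of each paralog in the summed CPM per kb of exon of its family, in percent, by day; points are libraries, lines join the means and bars are SD. Lin28a climbs from 78.0 to 93.6%, Hmga2 from 1.81 to 26.2% and Igf2bp2 from 48.6 to 66.1%.

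The genes that make, tail and read let-7 changed in both directions. Of 14 genes of microRNA processing and of the Argonaute effectors, 5 were higher and 7 lower at day 6 than at day 0 (median log2 -0.08, beside 0.02 for all genes). Among all tested genes, 39.4% were higher and 37.5% lower. Ago2, the slicing Argonaute, fell from 133 ± 9.87 to 69.7 ± 1.96 CPM at day 2 and stood at 95.9 ± 3.67 CPM at day 6 (-0.48 ± 0.05, adjusted p = 2.71e-10, edgeR's quasi-likelihood test). Ago3 fell too, from 26.1 ± 3.17 to 19.7 ± 1.245 CPM at day 6. Dgcr8, the partner of Drosha in the nucleus, rose from 67.8 ± 4.73 to 78.6 ± 3.61 CPM, and the Dicer partner gene Prkra from 12.2 ± 2.29 to 19.99 ± 1.155 CPM. The helicase gene Ddx5 rose from 611 ± 12.4 to 736 ± 3.93 CPM, while Khsrp, whose protein binds the let-7 loop and favours processing, was at 137 ± 6.08 CPM at day 0, 102 ± 2.63 at day 4 and 127 ± 4.95 at day 6.

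LIN28A acts on let-7 precursors together with the terminal uridylyl transferases TUT4 and TUT7, and the exonuclease DIS3L2 removes the tailed product. All 3 of these genes were higher at day 6 than at day 0, as were 39.4% of all tested genes. Tut4 went from 117 ± 2.90 to 205 ± 8.60 CPM at day 2 and 154 ± 6.20 CPM at day 6 (0.40 ± 0.05, adjusted p = 2.36e-09, edgeR's quasi-likelihood test). Tut7 stood at 111 ± 2.11 CPM at day 0 and 111 ± 1.21 at day 2, and rose to 160 ± 3.65 CPM at day 6, and Dis3l2 went from 15.3 ± 0.693 to 19.9 ± 1.59 CPM. Trim25, a cofactor of this tailing, fell from 155 ± 8.80 to 78.6 ± 4.05 CPM at day 2 and was at 92.6 ± 1.81 CPM at day 6 (-0.75 ± 0.05, adjusted p = 6.16e-16).

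Of 30 other genes described as let-7 targets, 29 were tested. Against day 0, 11 were higher and 8 lower at day 2, 11 higher and 12 lower at day 4, and 16 higher and 10 lower at day 6, with medians of 0.08, 0.00 and 0.26 on the log2 scale. Of all tested genes, 34.9% were higher and 33.2% lower at day 2, and 37.5% and 36.1% at day 4. At day 6 these shares were 39.4% and 37.5%, and the all-gene medians at the 3 days were 0.02, 0.01 and 0.02. The cyclin genes parted: Ccnd1 fell from 37.2 ± 1.09 to 8.40 ± 2.05 CPM at day 6, and Ccnd2 rose from 3.46 ± 1.23 to 96.8 ± 0.141 CPM (4.81 ± 0.14, adjusted p = 8.58e-19, edgeR's quasi-likelihood test). Mycn, a growth-promoting transcription factor gene, dropped from 214 ± 3.85 to 42.0 ± 2.95 CPM at day 2 and came back to 114 ± 4.43 CPM at day 6. Igdcc3, an immunoglobulin-domain receptor gene with 2 matches of 8 bases, rose from 11.6 ± 2.12 to 72.9 ± 1.70 CPM (2.65 ± 0.08, adjusted p = 2.15e-27). Irs2, an insulin-signalling adaptor gene with 1 such match, rose from 8.30 ± 0.348 to 27.1 ± 1.67 CPM, and the nuclease gene Dna2, also with 1, fell from 137 ± 3.60 to 46.9 ± 2.93 CPM. Mycn, Ccnd1 and Ccnd2 held no match of 7 bases in the transcript searched. Of the 30, 16 held an 8-base match and 23 a 7-base match.

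**Figure D5:**
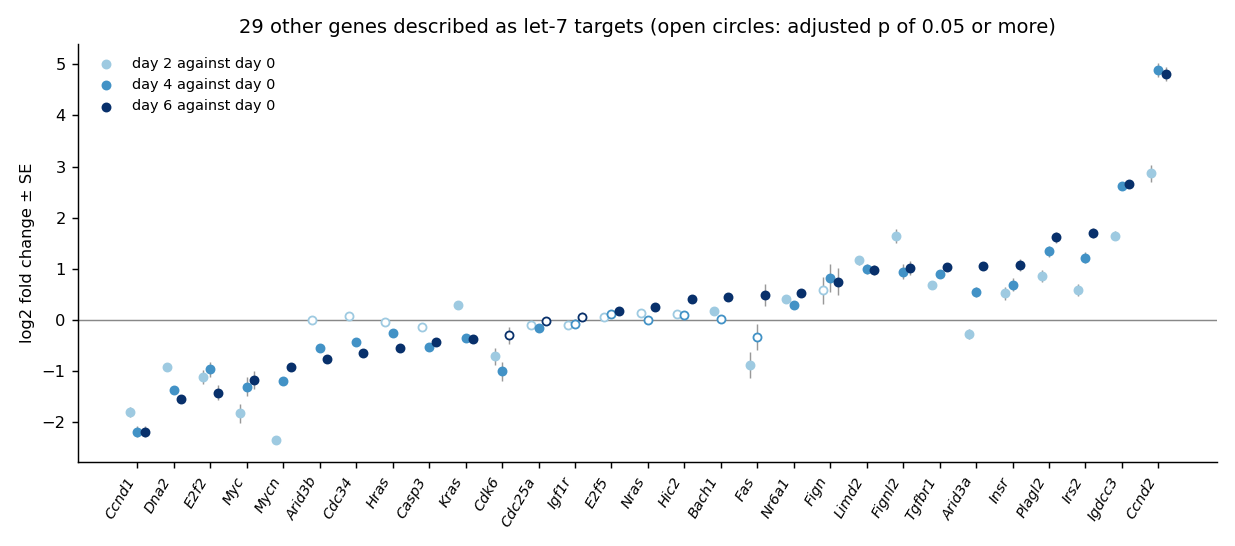
Log2 fold change against day 0, with SE as bars, of the 29 tested genes of a list of let-7 targets other than the 8, ordered by the change at day 6; filled circles passed at an adjusted p under 0.05. The genes spread from Ccnd1, lowest at day 6, to Ccnd2, highest, with 16 higher and 10 lower at that day.

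Targets of the proteins themselves were mixed as well. Of 5 mRNAs described as silenced by TRIM71, 1 was higher and 3 lower at day 2, when Trim71 itself had fallen, and 3 were higher and 2 lower at day 4. Among all tested genes, 34.9% were higher and 33.2% lower at day 2, and 37.5% and 36.1% at day 4. Cdkn1a, the p21 cell cycle inhibitor gene, fell from 109 ± 2.85 to 29.7 ± 1.21 CPM at day 2 and 37.1 ± 0.215 CPM at day 6 (-1.55 ± 0.06, adjusted p = 8.20e-24, edgeR's quasi-likelihood test). Mbnl1, a splicing regulator gene, rose from 8.59 ± 0.311 to 23.0 ± 1.20 CPM at day 6. Egr1, an immediate early gene, was among the 3 lower at day 2. It stood at 4.63 ± 1.68, 2.79 ± 0.255, 15.0 ± 0.846 and 13.1 ± 1.54 CPM at days 0, 2, 4 and 6. Rbl2, of the retinoblastoma family, stood at 22.2 ± 1.52, 11.3 ± 1.30, 13.98 ± 0.966 and 23.0 ± 0.974 CPM at the 4 days, and its relative Rbl1 did not pass at days 2 and 6.

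Of 6 mRNAs known to be bound by IGF2BP proteins, 4 were higher and 2 lower at day 6, beside 39.4% and 37.5% of all tested genes. Igf2, the growth factor gene after which the family is named, rose from 3.23 ± 0.298 CPM at day 0 to 28.9 ± 0.106, 323 ± 11.5 and 957 ± 40.8 CPM at the later days (8.20 ± 0.08 at day 6, adjusted p = 4.09e-44, edgeR's quasi-likelihood test). H19, the noncoding RNA of the same imprinted locus, rose from 6.27 ± 1.18 to 395 ± 13.1 CPM. Actb went from 461 ± 31.6 to 547 ± 16.8 CPM and Cd44, an adhesion receptor gene, from 1.43 ± 0.365 to 4.93 ± 0.902 CPM, both higher. Myc fell from 7.58 ± 0.620 to 3.35 ± 0.121 CPM and Btrc, a ubiquitin ligase subunit gene, from 62.0 ± 3.76 to 47.8 ± 0.746 CPM.

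Mature let-7 is too short and carries no polyA tail, so these libraries do not measure it. The 11 let-7 gene rows held 43 counts in all 12 libraries together and none was tested. Longer transcripts that span let-7 genes on the same strand gave some counts. Mir99ahg, which contains let-7c-1, had summed counts of 0, 5, 22 and 68 at days 0, 2, 4 and 6, at least 17.2-fold higher at day 6 than at day 0 with a floor of 3 counts summed over the libraries of a day, which covers counting error only. Mir100hg, which contains let-7a-2, rose from 0.775 to 1.63 CPM (log2 1.02, adjusted p = 0.0218, edgeR's quasi-likelihood test), and 6720427I07Rik, which contains let-7a-1, let-7d and let-7f-1, from 1.34 to 2.48 CPM (0.86, adjusted p = 0.00942). Spaca6, whose body contains let-7e, rose from 8.09 to 21.5 CPM (1.41), whereas Huwe1, with let-7f-2, went from 889 to 775 CPM (-0.20, adjusted p = 7.48e-05). Wdr82, with let-7g, did not pass at day 6 (0.07, adjusted p = 0.341).

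All genes with the 8-base match were taken as a wider frame for the 8. Of 13889 tested genes with a 3′ UTR, 493 held it. At day 6 against day 0, 49.5% of these were higher and 32.3% lower with a median log2 change of 0.23, beside 41.7% higher, 37.9% lower and a median of 0.05 for all 13889. At day 2 against day 0, 41.0% were higher and 31.8% lower, beside 37.2% and 34.3%. At day 4 against day 0, 44.4% were higher and 32.5% lower, beside 39.3% and 37.1%. Between days 4 and 6, 34.3% were higher and 12.4% lower, beside 26.0% and 19.5%. Between days 2 and 4, 26.8% were higher and 26.4% lower, beside 26.1% and 26.0%; with the 7-base match the lower share was 24.3%, on the other side of that for all genes. Without the 7 of the 8 genes that hold the match, 486 genes remained, 49.6% higher and 32.3% lower at day 6. The 28 genes with 2 or more 8-base matches, among them Lin28a, Trim71 and Igf2bp1, did not follow the whole list throughout. At day 4 against day 0, 39.3% of them were higher and 42.9% lower (median -0.15). That is 11 genes higher, Lin28a among them, and 12 lower, Trim71 and Igf2bp1 among them, so the small excess of lower genes depends on these members. Shares of this shorter list were not taken without them. At day 6 against day 0 these shares were 46.4% and 39.3% (median 0.18), and between days 4 and 6 they were 46.4% and 3.57%. These are descriptions of lists with no test, and longer UTRs hold the match more often, as the shares over UTRs of at least 1000 bases show.

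The course of each gene over the 12 libraries was set beside those of 10763 other genes with a mean of at least 5 CPM, by the root mean square (RMS) difference of centred log2 CPM. Nearest to Lin28a were Retreg2 (0.0603) and Hp1bp3 (0.0653), and nearest to Lin28b were Nubp1 (0.0801) and Eif4a3 (0.0859). Trim71 lay nearest to Dock6 (0.0784) and Galnt6 (0.0844). Hmga1 lay nearest to Kat6b (0.101) and Ak1 (0.130), and Hmga2 to Pdgfra (0.0887) and Ttyh3 (0.114). Igf2bp1 lay nearest to Kmt5a (0.0423) and Fam192a (0.0507), Igf2bp2 to Stard7 (0.0511) and Tmem127 (0.0649), and Igf2bp3 to Idh1 (0.0786) and Mastl (0.0849). Kat6b, a histone acetyltransferase gene, went from 861 to 170 CPM between days 0 and 6, and Pdgfra, a growth factor receptor gene, from 34.0 to 142 CPM. Among the 8 genes themselves, Lin28a and Hmga2 were the closest pair, at an RMS difference of 0.159, and Hmga1 and Hmga2 the farthest apart, at 1.67. Trim71 and Hmga1, the pair that fell, lay 0.354 apart, and Lin28a and Lin28b 0.731.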

How the data were processed

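The deposited table holds raw counts per gene for the 12 libraries. The genome build mm10, the aligner HISAT2 (2.1.0) and the counter featureCounts (2.0.1) are listed in the submitters' processing notes together with DESeq2, without a version, and FastQC (0.11.7), and no order of steps is stated. Strandedness and the treatment of reads with several positions are not given in the sources used here, so reads of overlapping genes on opposite strands cannot be told apart. Besides Hmga2 and Igf2bp3, such overlaps include Lin28a with Gm13061 (234 bases), Trim71 with C130032M10Rik (135) and Hmga1 with AI413582 (102). Igf2bp1 shares 92 bases with Mir3063 on its own strand, which held 3.62 CPM at day 0 and 2.22 CPM at day 4. The part of shared reads was not tested. Of 55335 gene IDs, 55154 matched GENCODE M21, the source of coordinates, lengths and UTRs. The analysis used edgeR 4.0.16 in R 4.3.3: genes were kept by filterByExpr, scaled by TMM and fitted by a quasi-likelihood model over all 12 libraries with a coefficient per day and robust spread (common coefficient of variation 0.0415). CPM are computed from the deposited counts. Replicates of a day differed by more than counting error (chi-square per degree of freedom 1.51 to 3.80). No pairing of libraries by replicate number was seen, which does not exclude one. Correlations of deviations between libraries of the same number ran from -0.0381 to 0.0343, beside -0.0319 to 0.0339 for different numbers. The procedure was also run on simulated counts, drawn with the spread fitted here and with far fewer changed genes than these data. That run does not show how it performs where most genes change.

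The 8 genes and all lists were chosen with earlier results of these data known. Named beside the 8 are up to 6 genes per pathway list with the smallest F-test p and the 2 nearest profiles per gene (log2 CPM, prior count 2). Near-copies were aligned with BLAST 2.17.0 and figures drawn with matplotlib 3.10.9. Alternatives were other scalings, filters and tests (DESeq2 1.42.0, limma 3.58.1 voom), a replicate block, thinned counts, a stricter threshold, fewer libraries and other lengths or motifs. No protein sequences were used.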

Additional observations from a re-analysis of the deposited data

How the results depend on the processing

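Of the changes of single genes, 941 kept their call under an alternative, 16 no longer passed and 2 newly passed. A further 1, which had not passed, came to pass with the other sign. Changes of sign in values that passed in neither fit, such as Igf2bp1 at day 6 against day 0 (-0.05, or 0.05 with library size alone), are among the 941. With library size alone, Igf2bp3 at day 4 against day 0 went from -0.00 to 0.13 and passed (adjusted p = 0.0332, edgeR's quasi-likelihood test). Under the same scaling, Lin28b (0.22) and Igf2bp1 (0.15) at day 2 newly passed. Igf2bp1 at day 4 (-0.081), Lin28b at day 6 (-0.16) and Lin28b between days 2 and 4 (0.19) no longer passed. That last change also did not pass without a filter (0.19), with DESeq2 (0.20) or at an adjusted p under 0.01 (0.19), and over libraries left out it ranged from 0.15 to 0.26. Hmga2 between days 2 and 4 did not pass in thinned counts (0.11) or at the stricter threshold (0.15), and ranged from 0.12 to 0.16. Lin28b at day 6 against day 0 ranged from -0.32 to -0.20. Genes higher between days 2 and 4 numbered 2 in place of 4 at the stricter threshold and from 2 to 4 over libraries left out. By coding length, the share differences between days 6 and 0 were 22.4 points for Lin28a, -22.4 for Lin28b, -46.1 for Hmga1, 46.1 for Hmga2 and -11.1 for Igf2bp1. Leaving out libraries moved those of Hmga1 from -24.6 to -24.1 and of Hmga2 from 24.1 to 24.6. With the replicate block, Lin28a at day 6 rose by 1.77 (adjusted p = 6.91e-25), 12630 genes changed at day 6 in place of 12663, and no call among the 8 genes changed; 4 of 12 libraries correlated best with their own number. Against all genes, the higher share, the lower share and the median of genes with the let-7 match kept their side under the 7-base match and with all annotated UTRs in each comparison but 1: between days 2 and 4 the lower share, 26.4% beside 26.0%, became 24.3% with the 7-base match. In counts thinned to the smallest library, the step of Hmga2 between days 2 and 4 was the one call of the 8 genes that was lost.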
